A study of Mus musculus with 8 samples.

Results

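DNA repair genes were examined in Hepa-1c1c7, a mouse liver tumour cell line, after exposure to hexavalent chromium. The cells received potassium chromate at 0.1, 0.5 or 1 µM for 72 h or were left untreated, and chromatin open to the Tn5 transposase was mapped by ATAC-seq in 2 libraries per condition, 8 in all. The 49 genes were taken from a given list of symbols and fall into 5 classes: 5 of mismatch repair, 11 of nucleotide excision repair, 10 of base excision and single-strand break repair, 6 of the Fanconi anaemia pathway and 17 of double-strand break repair and its checkpoint. All 49 were found among 21631 protein-coding genes on the 19 autosomes and X in the RefSeq annotation of GRCm38.p6, which matches mm10. The deposited data are 3 lists of open regions, 1 per treated dose, each naming the untreated cells as its partner, with 14401, 11130 and 15894 regions in order of dose. A list for untreated cells alone was not used here, the lists carry no replicate error and the depth is unknown, so no difference between doses can be set against a spread between replicates and no test was run. The 1 µM libraries carry another label prefix (N503) than all other libraries (N502), which cannot be told apart from the dose. The sources used here do not say whether a listed region was more open than in untreated cells, and a listed region is no measure of expression. Of 12 hepatocyte markers 3, 3 and 4 had a region within 1 kb of a gene end (25.0%, 25.0% and 33.3%). The shares of all protein-coding genes were 19.5%, 18.7% and 23.0%, not far below. The markers with a region included Apoa2, Foxa2 and Cebpb but not Alb, Afp, Ttr or Hnf4a. Of 10 markers of blood, endothelium, mesenchyme, neurons and muscle 1, 0 and 0 had one. With so few markers, these counts do not settle whether the lists show a liver identity.

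Hexavalent chromium enters cells as chromate and is reduced there, which leaves chromium bound to DNA, crosslinks, oxidised bases and strand breaks. Nucleotide excision repair cuts out bulky adducts, base excision repair removes single damaged bases, the Fanconi anaemia pathway deals with crosslinks between strands, and breaks through both strands are rejoined by end joining or by homologous recombination. Mismatch repair corrects copying errors, and in human cells its proteins have been shown to turn chromium adducts into double-strand breaks during replication. Many genes of DNA repair share a promoter region with a neighbour read from the other strand.

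Repair genes had an open region at an end of the gene at a larger share than coding genes at large. A region within 1 kb of either end was listed for 23 of 49 genes at 0.1 µM (46.9%), 25 at 0.5 µM (51.0%) and 26 at 1 µM (53.1%), against 19.5%, 18.7% and 23.0% of all protein-coding genes. At every dose 20 genes (40.8%, against 14.2% of all genes) had one, 30 (61.2%, against 26.8%) had one at 1 or more doses, and 19 had none. In all 20 genes the regions of the doses overlapped one another by at least 1 bp, and in 15 by at least 50% in each direction. The lists share the untreated cells, so their likeness is given as a description. Many of these regions lie at the end of a neighbouring gene as well. Counting only regions within 1 kb of no other protein-coding gene's end left 11 repair genes at each dose (22.4%), against 14.4%, 13.4% and 16.6% of all genes. Among genes whose promoter is at least as rich in CpG as that of the median repair gene, 34.1%, 32.4% and 39.9% had a region at an end, which is nearer to the share of the repair genes.

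**Figure D1:**
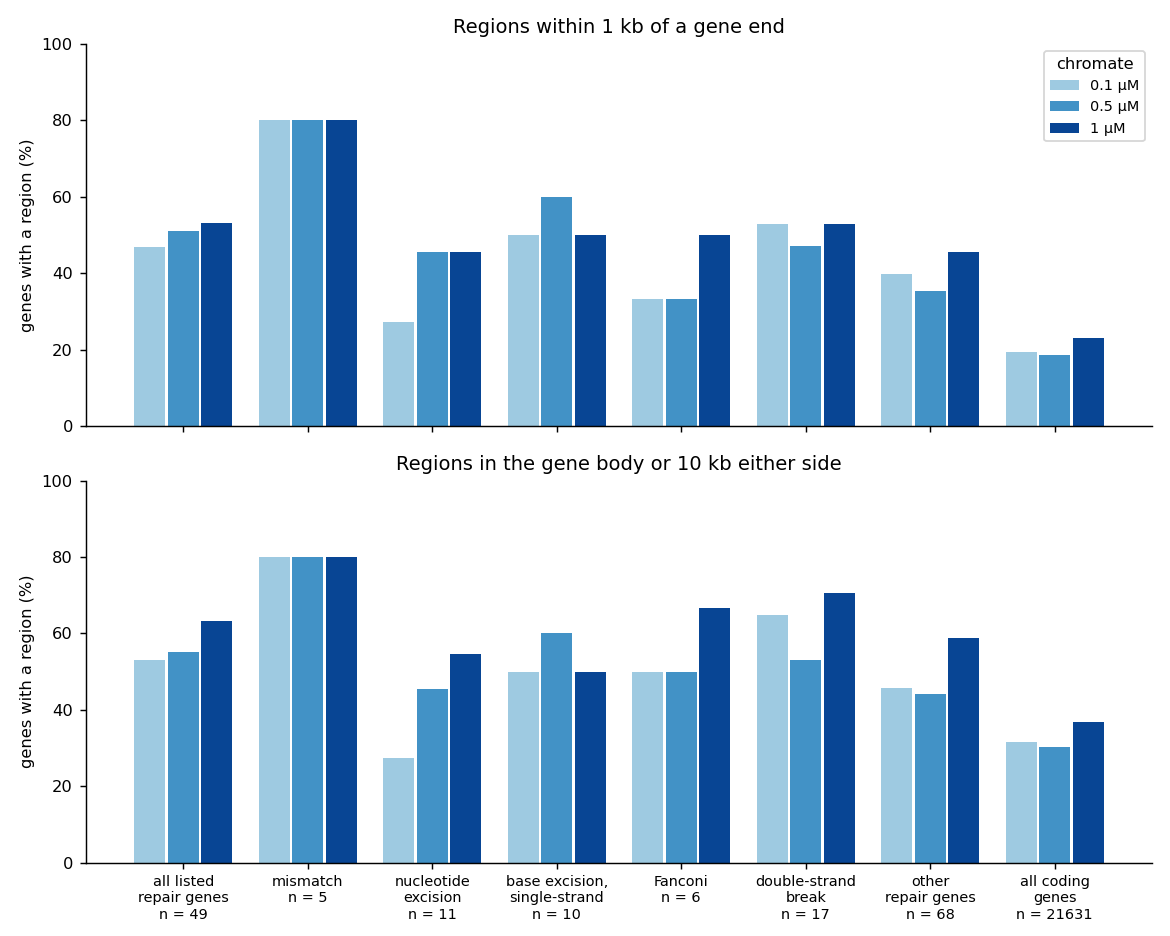
Share of genes (%, y axis from 0 to 100) with a listed region within 1 kb of a gene end (upper panel) and in the gene body or 10 kb either side (lower panel), by repair class, for other repair genes and for all coding genes, with 1 bar per dose of potassium chromate. All listed repair genes stand at 46.9% to 53.1% in the upper panel and all coding genes at 18.7% to 23.0%; mismatch repair, with 4 of 5 genes at every dose, has the highest bars.

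The regions lay at the start of the genes. A strand and start site could be taken from the RefSeq promoter table for 40 of the 49 genes. In 35 of them the start site lay within 1 kb of an end of the gene, 27 of these had a region at an end, and in all 27 it was at the start end. Among all genes treated alike, 168 of 4447 (3.78%) had regions at the other end alone. Counted from the start site, a region lay within 1 kb in 23, 24 and 27 of 40 repair genes in order of dose (57.5%, 60.0% and 67.5%), against 20.5%, 19.6% and 24.1% of 17274 genes with a start site, and at every dose in 20 (50%, against 15.1%). Genes with a promoter at least as rich in CpG as that of the median repair gene were counted too, at a single start per gene. Of these, 35.3%, 33.5% and 41.3% had a region within 1 kb of the start, and 26.3% at every dose. In 14 repair genes (35.0%, against 11.1% of all genes with a start site) a region covered the start site itself at every dose. Of the repair gene regions at a gene end with a known strand, 63.6%, 61.5% and 73.1% covered the start of that gene. Of all regions within 1 kb of a start, 70.2%, 70.3% and 72.2% covered the start of some gene. These shares have different bases, and at a shared start the latter counts either gene, so they cannot be compared.

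**Figure D2:**
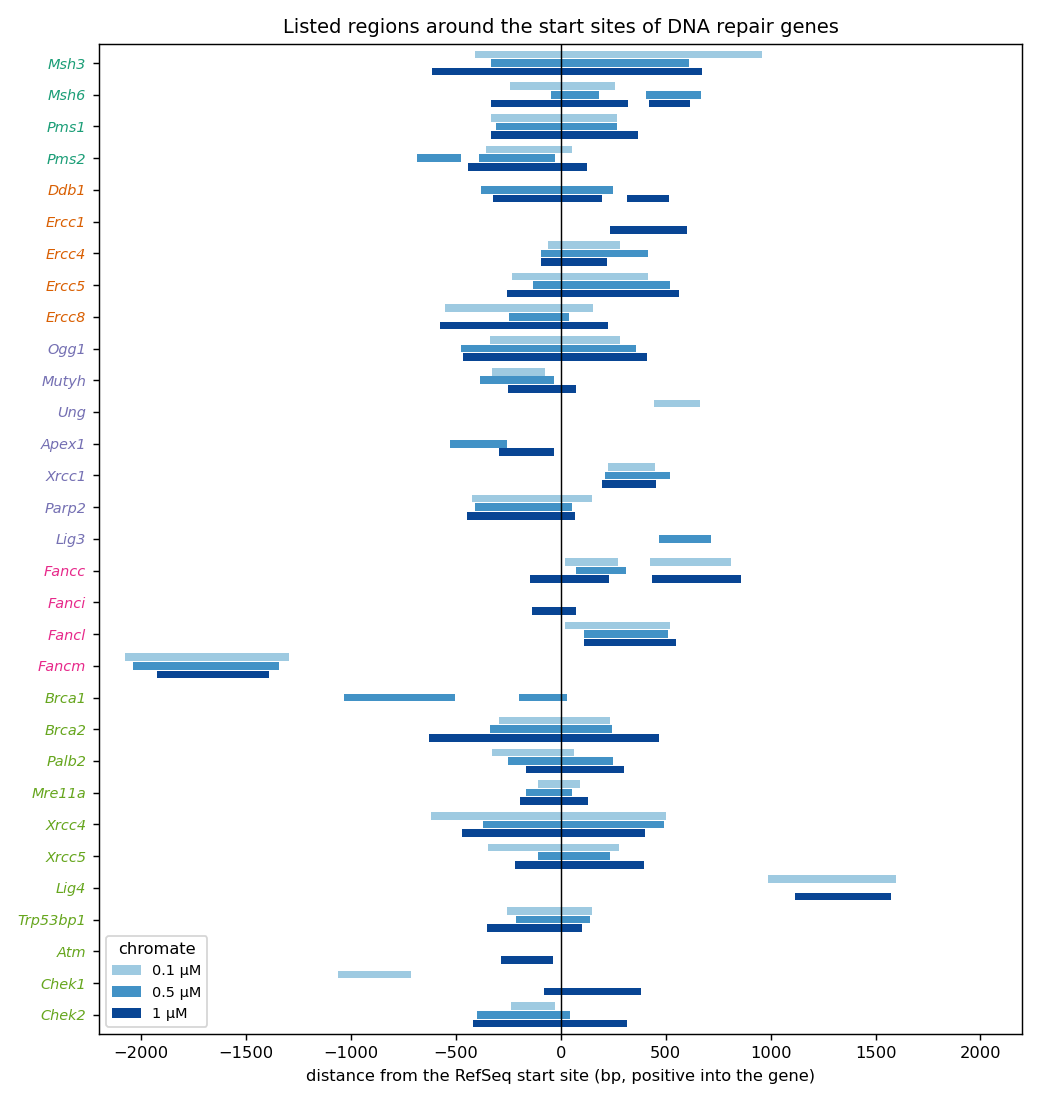
Extent of each listed region (bars, 1 colour per dose) around the RefSeq start site of repair genes with a known strand (x axis, bp, positive into the gene), with gene names coloured by class. Most bars cross or touch the start at 0; the Fancm bars end 1296 to 1391 bp before the start site used, and those of Lig4 begin 989 and 1116 bp after it.

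The letters before the start are shown for genes whose region covered the start at every dose, the one with the highest mean score rank in its class where the class has such a gene, and for Trp53bp1, whose start lies inside its annotated span. Xpa, which had no region in the gene or 10 kb around it, is shown for comparison, and it and Trp53bp1 were picked after their values were seen. Each line gives the 250 bases before the start site, in the direction of the gene, from RefSeq (GRCm38.p6), with matches to the motifs searched in capitals.
Pms1 (chr1:53297029-53297278, minus strand): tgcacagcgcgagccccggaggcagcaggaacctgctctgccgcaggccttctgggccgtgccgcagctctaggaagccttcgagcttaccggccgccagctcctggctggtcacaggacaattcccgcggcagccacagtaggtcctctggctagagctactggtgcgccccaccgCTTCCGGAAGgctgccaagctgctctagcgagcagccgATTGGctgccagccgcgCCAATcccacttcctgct
Ercc5 (chr1:44147494-44147743, plus strand): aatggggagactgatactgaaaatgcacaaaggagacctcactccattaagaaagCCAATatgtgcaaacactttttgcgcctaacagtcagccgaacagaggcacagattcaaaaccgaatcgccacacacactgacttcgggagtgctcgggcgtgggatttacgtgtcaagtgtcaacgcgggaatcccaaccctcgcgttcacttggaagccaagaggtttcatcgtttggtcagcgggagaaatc
Parp2 (chr14:50807666-50807915, plus strand): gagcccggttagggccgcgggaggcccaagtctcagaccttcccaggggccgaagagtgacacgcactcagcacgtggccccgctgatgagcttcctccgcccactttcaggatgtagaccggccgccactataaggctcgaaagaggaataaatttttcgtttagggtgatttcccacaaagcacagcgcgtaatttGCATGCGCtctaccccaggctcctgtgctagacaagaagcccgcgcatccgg
Xrcc4 (chr13:90089609-90089858, minus strand): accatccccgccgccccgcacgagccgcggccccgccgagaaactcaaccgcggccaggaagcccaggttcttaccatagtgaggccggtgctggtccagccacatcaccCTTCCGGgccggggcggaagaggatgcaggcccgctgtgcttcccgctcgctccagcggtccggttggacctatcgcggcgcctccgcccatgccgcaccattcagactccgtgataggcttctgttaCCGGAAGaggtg
Trp53bp1 (chr2:121271408-121271657, minus strand): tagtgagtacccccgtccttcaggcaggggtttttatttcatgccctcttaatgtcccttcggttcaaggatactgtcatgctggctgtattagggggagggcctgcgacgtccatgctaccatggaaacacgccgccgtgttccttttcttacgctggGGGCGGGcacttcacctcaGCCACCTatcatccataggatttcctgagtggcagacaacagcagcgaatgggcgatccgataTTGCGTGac
Xpa (chr4:46196312-46196561, minus strand): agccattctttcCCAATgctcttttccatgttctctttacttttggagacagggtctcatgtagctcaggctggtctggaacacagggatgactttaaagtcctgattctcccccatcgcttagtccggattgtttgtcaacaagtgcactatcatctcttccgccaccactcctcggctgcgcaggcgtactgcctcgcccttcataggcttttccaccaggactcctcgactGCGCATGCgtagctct
The capitals mark 2 overlapping ETS matches and 2 CCAAT boxes at Pms1, a CCAAT box at Ercc5, an NRF1 match at Parp2, 2 ETS matches at Xrcc4, the SP1, CTCF and xenobiotic response motifs at Trp53bp1, and a CCAAT box and an NRF1 match at Xpa. Xpa carries the NRF1 letters of Parp2 on the other strand, without a listed region.

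The promoters of repair genes held several of these motifs more often than promoters at large. Each motif was searched on both strands in windows from 250 bases before to 50 after the start, in 40 repair genes and 17274 genes. E2F (TTTCCCGC), bound by factors of the cell cycle, was found in 4 of 40 windows (10%, against 1.48% of all): Brca2, Chek2, Msh6 and Xrcc6. NRF1 (GCATGCGC), a motif of housekeeping promoters, was found in 9 (22.5%, against 3.64%), ETS (CCGGAAG) in 10 (25.0%, against 12.1%), CCAAT in 24 (60.0%, against 39.6%) and SP1 (GGGCGGG) in 19 (47.5%, against 34.4%). The short CTCF core AGGNGGC, of interest because the title of the series names CTCF sites in promoters, was found in 14 (35.0%, against 33.1%), close to the share of all promoters. Motifs of stress response showed no common direction. The antioxidant response element TGACNNNGC was found in 4 (10%, against 13.1%), the xenobiotic response element TNGCGTG in 5 (12.5%, against 6.16%), the cyclic AMP response element TGACGTCA in Brca2 alone (2.5%, against 2.36%) and AP-1 (TGANTCA) in 0 (against 7.09%). The letters of E2F, NRF1, ETS, SP1 and the xenobiotic and cyclic AMP elements hold a CpG, and those of CCAAT and AP-1 do not. Repair gene promoters were also richer in CpG, with a median ratio of observed to expected CpG of 0.91 against 0.59 over all genes. Motif shares were not compared with those of promoters equally rich in CpG, so the part of composition in them was not tested. The motifs were also counted in the 20 repair gene promoters with a region within 1 kb of the start at every dose and the 10 with none. NRF1 was found in 2 of 20 and 4 of 10, against 5.95% and 2.79% of all promoters split alike, and SP1 in 9 of 20 and 6 of 10, against 52.2% and 28.0%, so that for both the order in repair genes was the other way round. ETS was found in 5 and 2 (against 22.0% and 8.38%), CCAAT in 14 and 7 (against 47.5% and 37.6%), E2F in 3 and 1 (against 2.54% and 1.16%) and the CTCF core in 8 and 3 (against 40.8% and 30.2%). The antioxidant element was found in 4 and 0 (against 16.9% and 12.0%), the xenobiotic element in 4 and 1 (against 8.69% and 5.12%), the cyclic AMP element in 1 and 0 (against 4.44% and 1.81%) and AP-1 in 0 and 0 (against 4.72% and 7.92%). These are few promoters, and the differences were not tested. Some of these motifs can overlap, and a match is a run of letters, not a bound site.

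**Figure D3:**
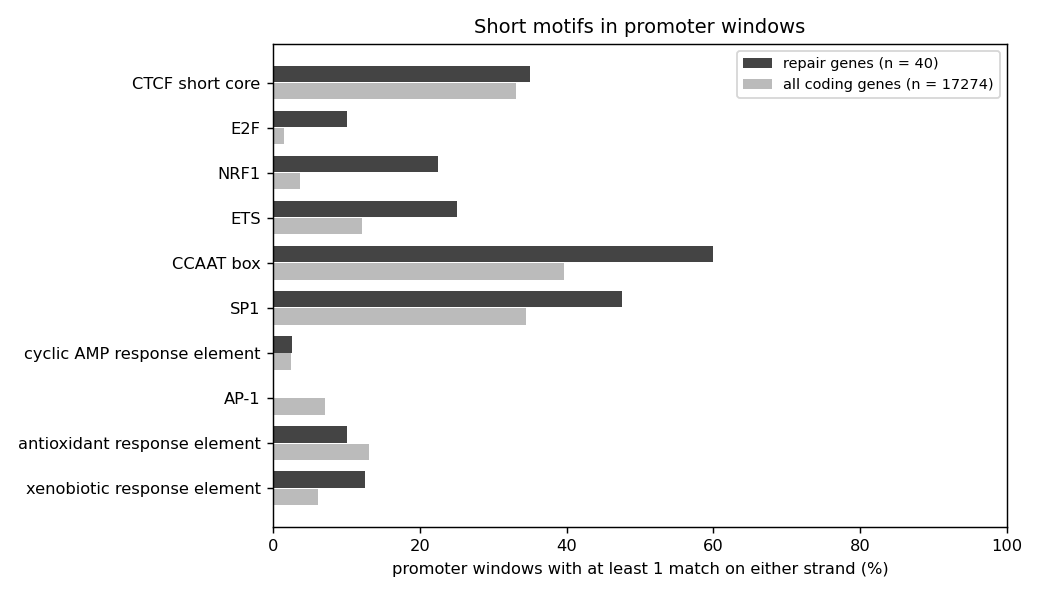
Share of promoter windows (%, x axis) with at least 1 match to each motif on either strand, in 40 repair genes (dark) and 17274 coding genes (light). NRF1 stands at 22.5% against 3.64% and E2F at 10% against 1.48%, while the short CTCF core stands at 35.0% against 33.1% and AP-1 at 0 against 7.09%.

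Repair genes often had the start of another gene close by on the other strand. The side on which it lay was not checked, so pairs that overlap may be counted too. A start on the other strand lay within 1 kb in 15 of 40 repair genes (37.5%), against 1658 of 17274 genes (9.60%). The distance between the starts of a pair lay between 37 bp for Lig4 and Abhd13 and 694 bp for Xrcc1 and Pinlyp, and it was not compared with that of other genes' pairs. As examples, 55 bp separated the starts of Nthl1, a glycosylase gene, and Tsc2, 56 bp those of Apex1 and Osgep, 59 bp those of Xrcc4 and Tmem167, 67 bp those of Pms1 and Ormdl1, 81 bp those of Mre11a and Ankrd49, 95 bp those of Palb2 and Dctn5, and 152 bp those of Brca1 and Nbr1. Starts with such a neighbour had a region at every dose in 8 of 15 repair genes (53.3%), against 31.8% of all genes of this kind. Starts without one had a region at every dose in 12 of 25 repair genes (48.0%), against 12.8% of all. Atr, Nthl1 and Xrcc6 had such a neighbour and no region near the start at any dose. A region at a shared start cannot be given to one gene of the pair, and the part of shared starts in the count of repair genes was not tested.

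**Figure D4:**
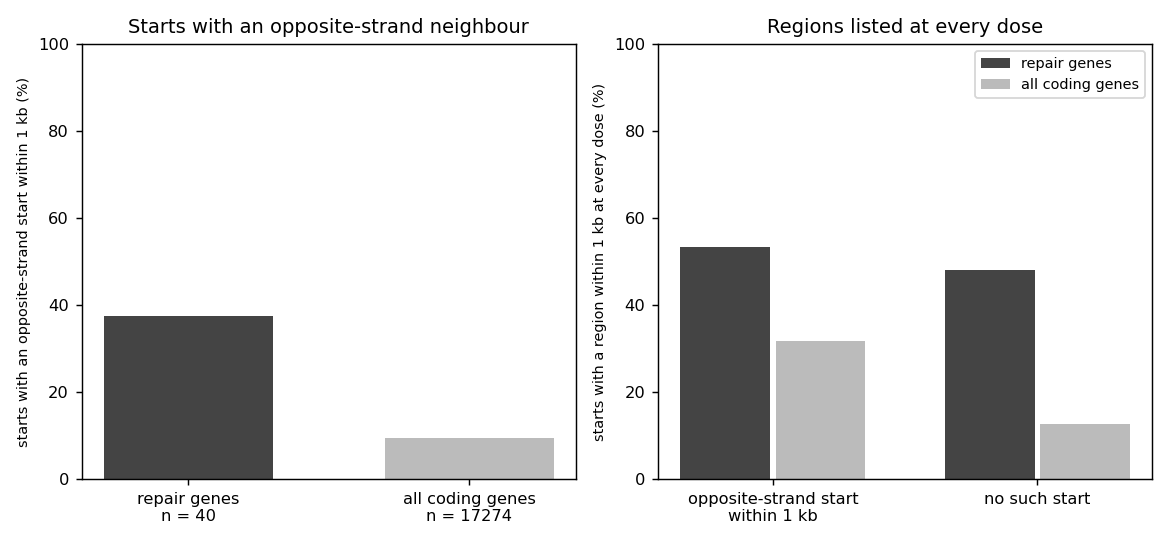
Left, share of start sites (%) with a start of another gene on the opposite strand within 1 kb, in repair genes and in all coding genes. Right, share of start sites (%) with a listed region within 1 kb at every dose, for starts with and without such a neighbour. Repair genes stand at 53.3% and 48.0% on the right and all coding genes at 31.8% and 12.8%.

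Each region carries a score, a whole number of at least 4 given by the authors without a stated scale. It is used here only as a rank within its list, and scores of a gene at different doses are not read as a change. The median score percentile of repair gene regions at gene ends was 76.5, 68.8 and 61.2 in order of dose, against 55.2, 54.8 and 57.4 for all regions at gene ends. Their median width was 530, 421.5 and 519 bp, against 422, 377 and 431.5 bp.

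Mismatch repair genes had regions at 4 of 5 genes at each dose, against 19.5%, 18.7% and 23.0% of all genes, and they were the same 4. Pms1, a homologue of the bacterial MutL protein, had the strongest, from 53296759 to 53297361 on chromosome 1 at 0.1 µM, with scores of 58, 38 and 89 and percentiles of 96.0, 94.5 and 97.5 in order of dose. Its region is shared with Ormdl1, a regulator of sphingolipid synthesis. Msh3, whose protein takes part in the recognition of insertion and deletion loops, had a region of 1368, 943 and 1286 bp (chr13:92354042-92355409 at 0.1 µM) with scores of 32, 8 and 35. A further region inside Msh3, 29587 bp from its nearer end at 0.1 µM, was listed at every dose with scores of 32, 13 and 51. Msh6, which helps to recognise single mismatches, had a region over its start with scores of 14, 14 and 25, shared with no other gene, and a narrow neighbour 407 and 419 bp into the gene at 0.5 and 1 µM. Pms2, the endonuclease subunit of the main MutL complex, had scores of 19, 18 and 33 at a region shared with Aimp2. Mlh3, which acts mainly in meiosis, had no region in the gene or 10 kb around it.

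Nucleotide excision repair genes had regions at 3, 5 and 5 of 11 genes (27.3%, 45.5% and 45.5%), against 19.5%, 18.7% and 23.0% of all genes, so that the share at 0.1 µM was near that of all genes. Those listed at every dose were Ercc5, Ercc4 and Ercc8. Ercc5, which encodes XPG, had a region of 652, 651 and 820 bp over its start (chr1:44147511-44148162 at 0.1 µM) with scores of 22, 40 and 47 and percentiles of 78.4, 95.2 and 92.0. Ercc4, which encodes XPF, had scores of 26, 15 and 29 (chr16:13109674-13110020 at 0.1 µM). Neither region lay at another gene's end. Ercc8, whose product CSA acts where transcription is blocked by damage, had scores of 36, 9 and 6 at widths of 706, 288 and 800 bp, with percentiles of 90.1, 42.9 and 13.2 in their lists, and it shares the region with Ndufaf2. Ddb1, which encodes a subunit of the ultraviolet damage sensor and of an ubiquitin ligase, was listed at 0.5 and 1 µM with scores of 7 and 18, and Ercc3, which encodes the XPB helicase of TFIIH, at the same doses with scores of 7 and 15.

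The other genes of this class had no region at a gene end. Xpa, Xpc, Ddb2, Ercc2 and Ercc6, which encode the verification factor XPA, the sensors XPC and DDB2, the helicase XPD and the transcription-coupled factor CSB, had none in the gene or 10 kb around it at any dose. The gap from the start of Xpa to the nearest listed region was 1097545, 367530 and 231212 bp in order of dose. Ercc1, the partner of XPF, had a region at 1 µM, with a score of 9, that lay 1237 bp inside the gene and so just outside the window. Measured from the RefSeq start site, which lies 1004 bp inside the annotated span, it was 233 bp away.

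Base excision and single-strand break repair genes had regions at 5, 6 and 5 of 10 genes, against the same shares of all genes (19.5%, 18.7% and 23.0%). Parp2, a sensor of strand breaks, had a region over its start (chr14:50807492-50808064 at 0.1 µM) with scores of 29, 17 and 37 and percentiles of 86.2, 75.6 and 87.7. Parp1, which shares that role, had no region in the gene or 10 kb around it. Ogg1, the glycosylase of oxidised guanine, had a region of 623, 839 and 877 bp with scores of 9, 22 and 43. Mutyh, which removes adenine paired with oxidised guanine, had scores of 8, 9 and 14 at an end shared with Toe1. Xrcc1, the scaffold of single-strand break repair, had regions 224, 210 and 197 bp into the gene with scores of 8, 6 and 13. Those of Mutyh stood at percentiles of 30.7, 42.9 and 54.4 and those of Xrcc1 at 30.7, 13.8 and 51.1, below the middle of the list at 0.1 and 0.5 µM and just above it at 1 µM.

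The remaining genes of this class had regions at fewer doses or none. Apex1, the main endonuclease of abasic sites, was listed at 0.5 and 1 µM with scores of 9 and 8, at places on the side of Osgep whose edges overlap. Ung, which removes uracil, was listed at 0.1 µM alone with a score of 7, and Lig3, the ligase partner of Xrcc1, at 0.5 µM alone with a score of 5, at percentiles of 22.8 and 7.67. Nthl1, which removes oxidised pyrimidines, and Polb, the gap-filling polymerase gene, had no region in the gene or 10 kb around it.

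Fanconi anaemia genes had regions at 2, 2 and 3 of 6 genes, against 19.5%, 18.7% and 23.0% of all genes, and with so few genes the count at 0.1 and 0.5 µM was near that share. Fancl, the ubiquitin ligase of the pathway, had a region just downstream of its start with scores of 15, 22 and 24. Fancm, a translocase that finds stalled forks, had a region at the gene's edge with scores of 21, 29 and 27, shared with Fkbp3. The RefSeq start site of Fancm used here lies 1493 bp inside the gene, so this region is 1296, 1340 and 1391 bp away from it. Fanci, a subunit of the complex that the ligase modifies, was listed at 1 µM alone with a score of 4, the lowest in the list. Fancd2, its partner, and Fanca, a subunit of the core complex, had no region in the gene or 10 kb around it. Brca1, Brca2, Palb2, Xrcc2 and Ercc4 also belong to this pathway, and with them counted in it 5, 6 and 6 of 11 genes had a region.

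Fancc, another core subunit, and Trp53bp1, whose product steers breaks towards end joining, had no region at an end of the gene but one near a start site inside it. The RefSeq start site of Fancc lies 65547 bp inside its annotated span of 195959 bp, and that of Trp53bp1 24947 bp inside its span of 101520 bp. The region of Trp53bp1 covered that start at every dose (chr2:121271258-121271661 at 0.1 µM, scores 9, 7 and 14). Regions of Fancc lay 22, 72 and 0 bp from its start, with scores of 11, 9 and 8. Both genes are thus counted as having a region at every dose by start site and at none by gene end.

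Double-strand break repair genes had regions at 9, 8 and 9 of 17 genes (52.9%, 47.1% and 52.9%, against 19.5%, 18.7% and 23.0%). Xrcc4, which holds the ligase of end joining, had the strongest region of all repair genes: chr13:90089105-90090227 at 0.1 µM, with scores of 121, 65 and 190 and percentiles of 99.3, 98.4 and 99.6. It is shared with Tmem167. A second region deep inside Xrcc4, 40112 bp from its far end at 0.1 µM, was listed at every dose with scores of 48, 6 and 72. Xrcc5, which encodes the Ku80 subunit of the end-binding dimer, had scores of 17, 14 and 13 over its start, and Xrcc6, for Ku70, had no region in the gene or 10 kb around it. Prkdc, the kinase that Ku recruits, had a weak region inside the gene at 0.1 and 1 µM, with a score of 9 each.

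Lig4, the ligase itself, depended on where the window ended. Its region was listed at 0.1 µM, 989 bp from the gene's end, with a score of 29, and at 1 µM, 1116 bp from it, with a score of 19. These overlap, and both cover another RefSeq start site of Lig4. No region of Lig4 was listed at 0.5 µM.

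Genes of homologous recombination differed among themselves. Brca2, which loads the recombinase, had a region over its start (chr5:150522329-150522858 at 0.1 µM) with scores of 22, 34 and 9 at widths of 530, 583 and 1097 bp. Palb2, which links Brca1 to Brca2, had scores of 21, 15 and 15 at a region shared with Dctn5. Brca1 was listed at 0.5 µM alone, with a region over its start (score 6) and another beyond the gene's edge (score 29, percentile 91.0). Both lie at an end of Nbr1. The nearest listed region to the start of Brca1 was 75730 bp away at 0.1 µM and 75817 bp at 1 µM. Xrcc2, a relative of the recombinase, had none in the gene or 10 kb around it.

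Of the complex that senses broken ends, Mre11a, the nuclease, had scores of 6, 11 and 19 at a region shared with Ankrd49, and Nbn, which brings in the kinase Atm, had scores of 26, 16 and 13 at an end of its own. Rad50, the third subunit, had no region in the gene or 10 kb around it. Among the checkpoint genes Chek2, the kinase downstream of Atm, was listed at every dose with scores of 12, 17 and 24. Chek1, the kinase downstream of Atr, was listed at 0.1 and 1 µM with scores of 14 and 6, at places that do not overlap. Atm was listed at 1 µM alone with a score of 9, between its start and that of Npat, 376 bp apart, and Atr had no region in the gene or 10 kb around it.

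**Figure D5:**
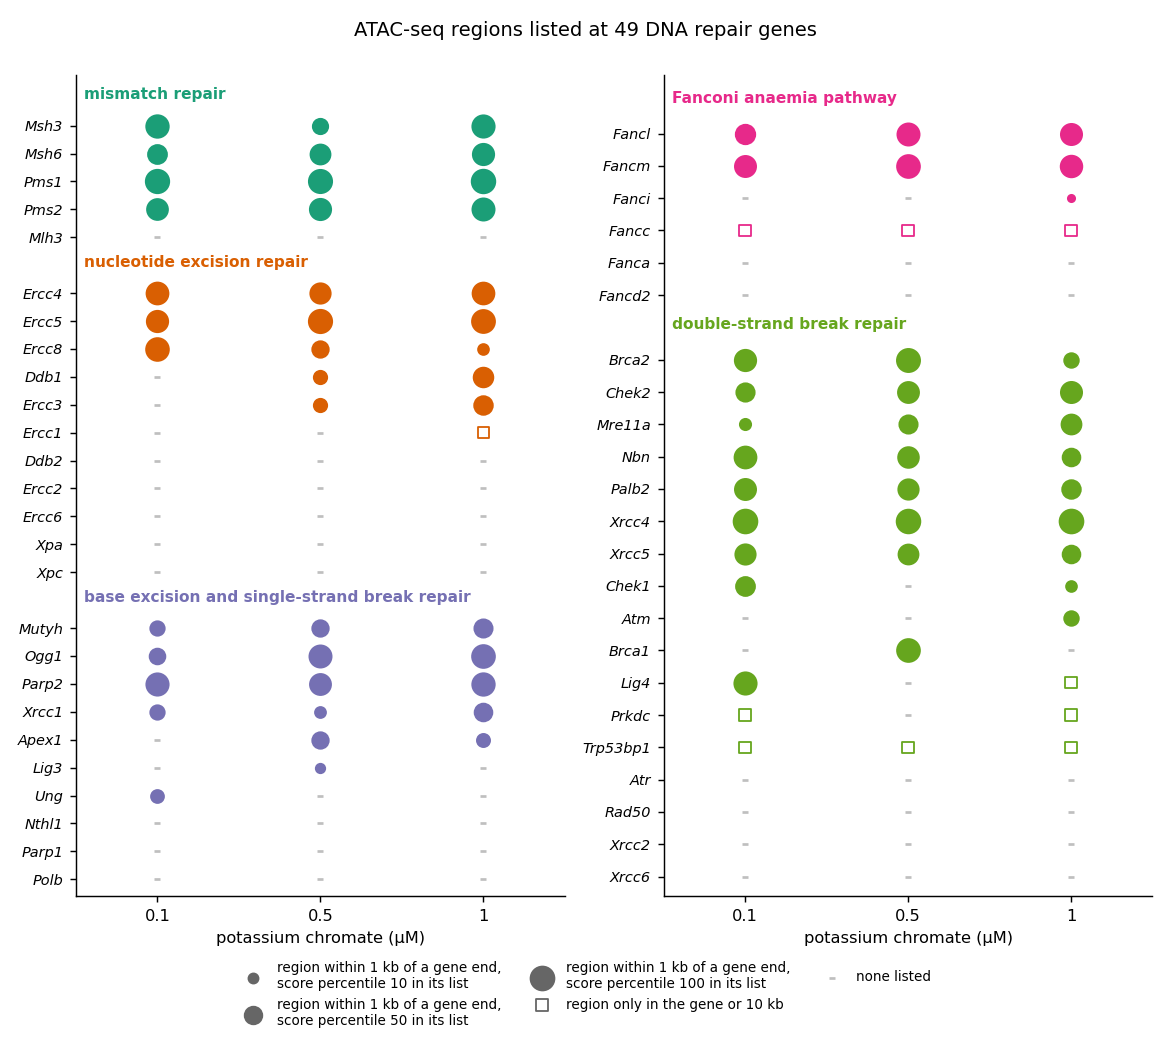
Listed regions at the 49 repair genes (rows, by class) at each dose of potassium chromate (columns, µM). Filled circles are regions within 1 kb of a gene end, with an area that grows with the score percentile in the list; open squares are genes with regions only in the body or 10 kb around it; dashes mark none listed. In 20 genes all 3 columns hold a circle, and Xrcc4, Pms1 and Ercc5 hold the largest across doses.

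With the gene body and 10 kb either side counted, 26, 27 and 31 of 49 repair genes had a region (53.1%, 55.1% and 63.3%), against 31.7%, 30.2% and 36.8% of all genes. This was so at every dose for 22 genes (44.9%, against 23.4%) and at 1 or more doses for 34 (69.4%, against 42.7%). Repair genes are long, with a median of 35003 bp against 17329 bp for all genes, and of genes at least as long as the median repair gene 45.4%, 41.0% and 49.8% had a region. The wider window added Fancc, Trp53bp1, Prkdc and Ercc1 to the genes with a region at some dose. The other 15 genes had none: Mlh3, Xpa, Xpc, Ddb2, Ercc2, Ercc6, Nthl1, Polb, Parp1, Fanca, Fancd2, Rad50, Xrcc2, Xrcc6 and Atr.

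Other genes of the same pathways, 68 in number, also had regions at larger shares than all genes. A region within 1 kb of a gene end was listed for 27, 24 and 31 of them (39.7%, 35.3% and 45.6%, against 19.5%, 18.7% and 23.0% of all genes), and at every dose for 21 (30.9%, against 14.2%). These 21 included the mismatch exonuclease gene Exo1, 6 genes of nucleotide excision repair (Rad23b, Cetn2, Gtf2h5, Cdk7, Ccnh and Rpa3), 3 of base excision repair (Neil3, Tdg and Aptx) and 5 of the Fanconi anaemia pathway (Fancb, Fancf, Slx4, Usp1 and Wdr48). The remaining 6 were Bard1, the partner of Brca1, and Xrcc3, Dclre1c, Nhej1, Mdc1 and Rad1. Of the kinase module of TFIIH, Cdk7 and Ccnh, its kinase and cyclin, were thus listed at every dose, and Mnat1, the third subunit, had no region in the gene or 10 kb around it.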

How the data were processed

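Open chromatin was mapped by ATAC-seq in 8 libraries of Hepa-1c1c7 cells, 2 per dose and 2 untreated. The authors deposited 3 region lists, each with a score, a whole number of at least 4 per region with no scale stated. Per the submitters' processing notes, Bowtie2, Picard, MACS2 and mm10 were used, without versions or roles. Whether libraries were pooled is not stated. The lists hold no read counts, so depth and counting error are unknown.

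The lists were crossed with RefSeq genes and start sites (GRCm38.p6) in Python 3.11.15 with pandas 2.3.3. A region counted when at least 1 bp of it lay in the window, and the overlap step was tested on simulated data. Every repair gene with a region at a gene end was named, with those without one named by class. The genes and lists were chosen with earlier results of these data known. Prkdc, Xpc, Nbn, Ddb2, Xrcc2, Rad50, Fancd2, Polb and Ercc3 were placed by gene end only. Windows, score and width limits, overlap rules and background genes were varied. With 1 list per dose, no test was made.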

Additional observations from a re-analysis of the deposited data

How the results depend on the processing

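Of 55 alternative values, 44 stayed within 1.5 times the value reported and 11 did not. Counting only regions at no other gene's end, an alternative chosen after seeing the data, gave 11, 11 and 11 repair genes in order of dose, in place of 23, 25 and 26. The higher-scoring 50% of each list gave 13 repair genes at every dose in place of 20. With the background limited to genes at least as rich in CpG as the median repair gene, also chosen after seeing the data, the shares of all genes were 34.1%, 32.4% and 39.9%. Counting 5 genes also in the Fanconi anaemia pathway gave 5, 6 and 6 genes there, and 5 double-strand break repair genes at 0.5 µM once they were moved. The cause was not tested. No paired analysis was possible because each dose has 1 region list and no test was made, and no replicate could be left out. The depth behind a missing region is unknown, so a gene without one may lie below what the lists could detect.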

Other observations

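Repair gene promoters without a region were not poor in CpG. The median ratio of observed to expected CpG was 0.98 in the 10 repair genes with no region within 1 kb of the start and 0.91 in the 20 with one at every dose. Over all genes the same medians were 0.40 and 0.81. Fancl, with a region at every dose, had the lowest ratio of the repair genes, 0.18, and Mlh3, with none, the highest, 1.14.

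Beyond 1 kb from the repair genes' own ends, some sites in the 10 kb around them were listed at every dose. A site beyond the end of Xrcc5, 4775, 4823 and 4784 bp from the gene in order of dose, had scores of 11, 11 and 21 and lay at no other gene's end. Sites near Palb2 and Mutyh were listed at every dose too, at the ends of Ndufab1 and Hpdl.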
